A study of Mus musculus with 19 samples.

Results

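The comparison described here sets astrocytes of APP-SOCS3 mice against astrocytes of APP-GFP mice, 9 of the 19 RNAseq samples of the study. Astrocytes were sorted by FACS as GFP+ cells from the hippocampus of 9 month-old male C57bl6 mice, in 5 APP-SOCS3 and 4 APP-GFP samples. Both groups carried the APP/PS1dE9 transgenes (1 of which is a chimeric mouse/human App with the Swedish mutation), a mouse model of the amyloid deposits of Alzheimer's disease. Both had also received, in the CA1 region, an AAV2/9 vector with the astrocyte promoter gfaABC1D that encodes GFP. In APP-SOCS3 mice, an AAV encoding SOCS3 under the same promoter was injected together with the GFP vector, at an equal total viral titer. The sort selected GFP, so whether each sorted cell also carried the SOCS3 vector was not measured. A gene entered the test with a mean of 10 or more in at least 1 of the groups, which held for 22844 of the 60567 listed genes.

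SOCS3 is the feedback inhibitor of the JAK2-STAT3 pathway. Cytokines of the interleukin-6 family activate JAK kinases through the receptor subunit gp130, STAT3 is phosphorylated and enters the nucleus, and *Socs3* is among the genes it induces. The SOCS3 protein then blocks the receptor and the kinase. In the brain, STAT3 is known as a driver of astrocyte reactivity, in which astrocytes grow and make more of the intermediate filament GFAP. The question of the comparison is which transcripts of astrocytes in an amyloid model differ when this inhibitor is overexpressed.

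Genes were set apart by where they are normally found, with samples that take no part in the comparison. WT-GFP astrocytes (wild-type littermates with the GFP vector, n = 7) were set against the GFP- cells of WT-GFP hippocampi (n = 3), a mix of microglia, neurons, oligodendrocyte precursors and other cells that did not carry the vector. Of the tested genes, 2462 were higher in WT-GFP astrocytes and are called astrocyte-enriched here. Another 5512 were higher in the GFP- cells, and 14870 passed in neither direction. The last count holds 971 genes under the minimum level in both WT-GFP astrocytes and GFP- cells, which were not tested for enrichment.

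The sorted cells carried the markers of astrocytes. None of 15 astrocyte markers was called different between APP-SOCS3 and APP-GFP, and their summed level ranged from 809832 to 1021410 over the APP-GFP samples, from 925153 to 1279490 over the APP-SOCS3 samples and from 32272 to 101067 over the GFP- samples. Markers of other cells differed between the groups. The summed level of 20 microglial markers was 21916, 100132, 124331 and 33618 in the APP-GFP samples and 19476, 19922, 21196, 13298 and 10763 in the APP-SOCS3 samples. The summed level of 20 endothelial markers was 10696, 50728, 28480 and 9101 in APP-GFP and 9998, 3601, 3007, 2627 and 2028 in APP-SOCS3 samples. APP-GFP samples 2 and 3 thus had the highest sums of both lists, and every APP-SOCS3 sample lay below every APP-GFP sample for microglia. By the thresholds defined below, 19 of 20 microglial, 20 of 20 endothelial, 9 of 13 border macrophage and 5 of 14 mural markers fell, with median log2 differences of -2.0, -2.69, -3.05 and -1.73. GFP- cells had higher sums than any of the 9 samples (164854 to 272607 for microglia and 203385 to 312364 for endothelial cells), although APP-GFP 3 and 2 came near the lowest of them for microglia. No microglial, endothelial or mural marker was at 0 in all samples of either group. Of the other marker lists, 6 of 20 for disease-associated microglia, 4 of 12 for fibroblasts, 3 of 12 for neurons, 3 of 10 for oligodendrocyte precursors and 1 of 9 for oligodendrocytes fell, 1 for fibroblasts rose (*Igfbp2*), and 0 of 12 ependymal markers were called. Single libraries moved these small counts: without APP-GFP 3 they were 3 for disease-associated microglia, 1 for fibroblasts and 1 for oligodendrocyte precursors, and without APP-GFP 2, APP-SOCS3 1, 3 or 4 they were 1 for neurons and 1 for precursors. No lymphocyte marker reached the level to be tested, and 8 of 11 were at 0 in all APP-SOCS3 and 4 in all APP-GFP samples. Among border macrophage markers, *F13a1*, *Ccr2* and *Ms4a4a* were at 0 in all APP-SOCS3 samples, and *Ccr2* also in all APP-GFP samples. In such bulk samples, fewer cells of a type and less RNA per cell cannot be told apart. One library, APP-GFP 2, stood apart in complexity, with 16471 genes detected against 24859 to 25273 in the other APP-GFP and 22050 to 26757 in the APP-SOCS3 samples, at similar depths of 22133657 to 26916715 reads on genes.

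**Figure D1:**
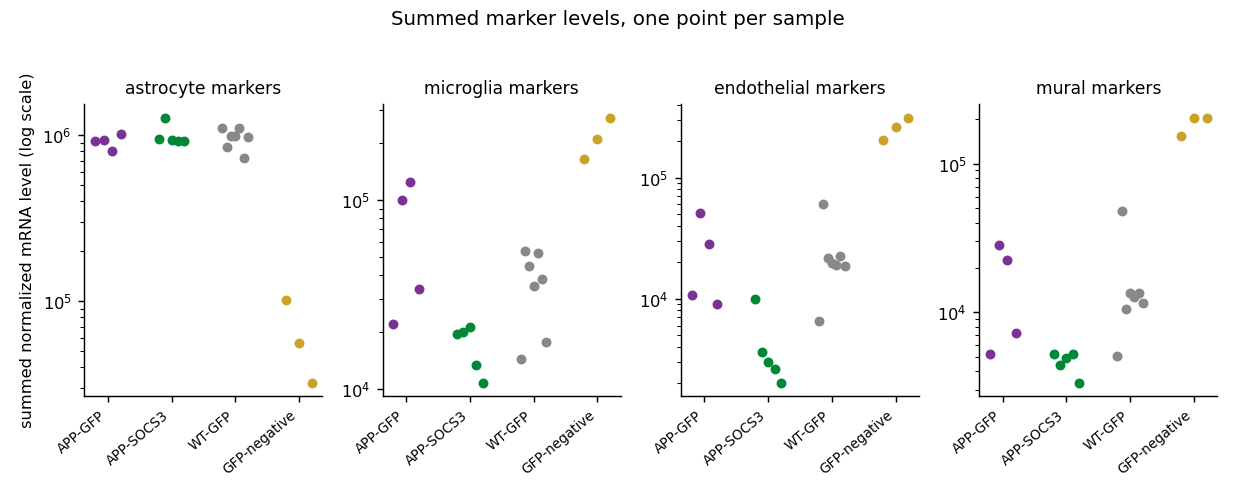
Summed normalized mRNA levels (log axis) of astrocyte, microglial, endothelial and mural markers, with a point for each sample of APP-GFP (n = 4), APP-SOCS3 (n = 5), WT-GFP (n = 7) and GFP- cells (n = 3). Astrocyte sums of the APP groups overlap, while microglial sums reach 124331 in APP-GFP and 21196 in APP-SOCS3.

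*Socs3* mRNA levels were 1148, 438, 1639 and 1090 in APP-GFP and 14488, 37750, 13296, 15732 and 16050 in APP-SOCS3 samples. The groups did not overlap, and sample 2 was the highest of the APP-SOCS3 group. The means were 1079 ± 493 (SD, n = 4) and 19463 ± 10281 (SD, n = 5), an 18-fold ratio, with a log2 difference of 4.20 ± 0.39 (SE) and an adjusted *p* of 0.00735 (limma, Benjamini-Hochberg over all tested genes). WT-GFP astrocytes stood at 834 ± 269 (SD, n = 7). The gene lies on chromosome 11 (117966089 to 117969366, mm10), and reads of the vector and of the cell's own gene cannot be told apart. GFP- cells of WT-GFP mice held a *Socs3* level of 14611 ± 3831 (SD, n = 3), so the gene is counted among those enriched outside astrocytes.

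Genes were called when the unadjusted *p* of limma was at most 0.05 and the change at least 1.5-fold, the thresholds of the study's methods. By this rule, 1301 of 22844 genes were called (5.7%), 532 of them higher (2.33%) and 769 lower (3.37%) in APP-SOCS3. *Socs3* was the sole gene with an adjusted *p* under 0.05 in limma, so every other call below rests on an unadjusted *p*. The quasi-likelihood test of edgeR on recovered reads left 0 genes after adjustment and 1455 at an unadjusted *p* under 0.05, and DESeq2 left 205 after adjustment, of which 172 were lower. By the same thresholds edgeR, which also rescales the libraries, called 398 genes higher and 925 lower. The balance was close to even with equal upper quartiles (674 higher, 691 lower), without APP-GFP 3 (596 and 618) and without APP-GFP 1 (849 and 987), and turned without APP-GFP 4 (938 and 786).

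The calls differed by class. Of the astrocyte-enriched genes, 56 of 2462 were called (2.27%), and 51 of these rose (2.07%) while 5 fell (0.203%). The number that fell was 12 without APP-GFP 1, 9 without APP-GFP 2, 18 with a microglial and 15 with an endothelial marker score as a covariate. Both scores differ between the groups, so here and below a covariate also takes up part of the group difference. At an unadjusted *p* of at most 0.05 alone the astrocyte-enriched genes numbered 123, or 5.00%. Of the genes enriched in GFP- cells, 689 of 5512 were called (12.5%), with 59 higher and 630 lower. The genes of neither class gave 556 calls of 14870 (3.74%), with 422 higher and 134 lower. That last split moved with the settings, to 274 higher and 197 lower in edgeR, to 312 and 234 without APP-GFP 2 and to 119 and 288 with the endothelial score as a covariate. Lower calls thus lay for the most part among genes that WT-GFP astrocytes hold at a lower level than GFP- cells do. The median log2 difference was 0.14 in astrocyte-enriched genes, -0.28 in genes enriched in GFP- cells, 0.15 in the others and 0.08 over all tested genes. The genes most enriched outside astrocytes stood apart from the rest. Among 2115 genes more than 16-fold below GFP- cells in WT-GFP astrocytes (log2 under -4), the median log2 difference was -0.96, and 332 fell while 21 rose. Among the next 4653 (log2 from -4 to -2) the median was 0.03, although 327 fell while 125 rose, and in the 2 bins from -2 to 0 the medians were 0.11 and 0.06. Among 412 genes at least 8-fold above (log2 of 3 or more), the median was 0.25, and 19 rose while 1 fell.

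**Figure D2:**
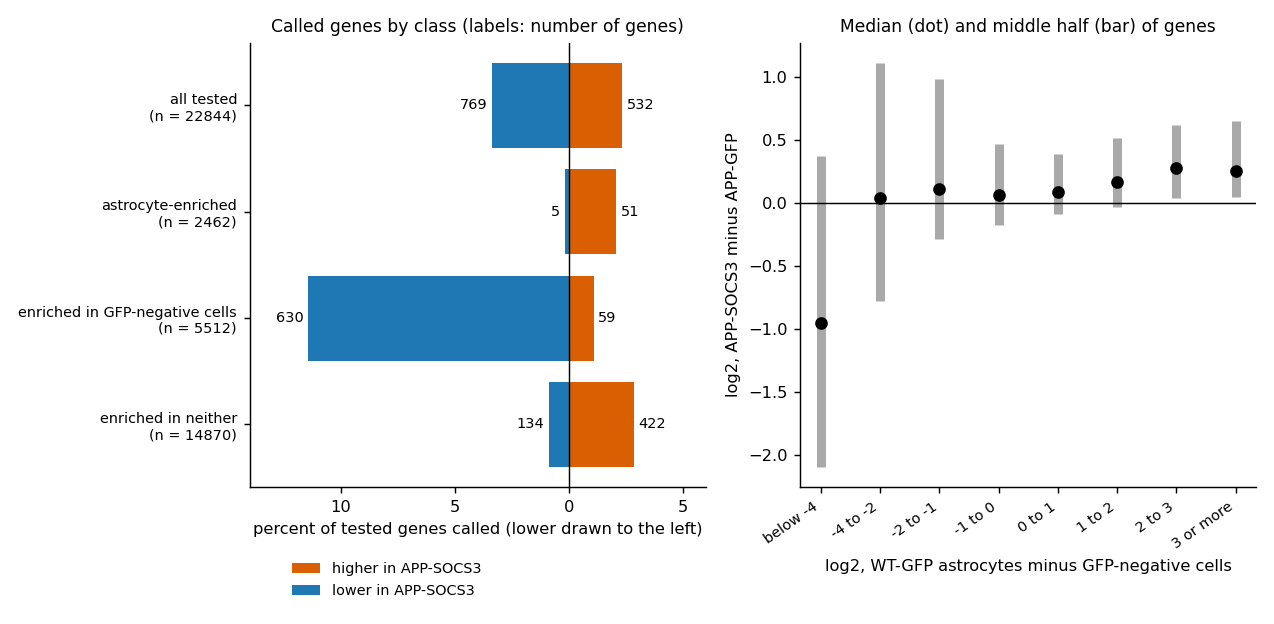
Left, percent of tested genes called higher (drawn to the right) or lower (to the left) in APP-SOCS3, by class. Right, median log2 difference (dots) and interquartile range (bars) of the genes in bins of enrichment in WT-GFP astrocytes over GFP- cells, from -0.96 in the lowest bin to 0.25 in the highest.

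Groups that do not overlap give a count that needs no model. They occurred in 459 of 22844 genes (2.01%), in 211 with all APP-SOCS3 samples higher and in 248 with all lower. In astrocyte-enriched genes the count was 50 of 2462 (2.03%), 48 higher and 2 lower, so the share was close to that of all genes. An exact permutation test of 5 against 4 samples allows no *p* below 0.0159, and every gene whose groups do not overlap takes that value. It is therefore not given as support for genes named because their groups do not overlap.

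The 5 astrocyte-enriched genes that fell were *C4b*, *Gfap*, *Hist2h2aa2*, *Dbndd2* and *B230307C23Rik*. *C4b* encodes complement component 4, which is cleaved when the classical complement pathway is activated and marks targets for removal. Its levels were 9351, 26775, 16430 and 14920 in APP-GFP and 2488, 6886, 2860, 4870 and 4531 in APP-SOCS3 samples. Every APP-SOCS3 sample was below every APP-GFP sample. The mean fell 3.9-fold, from 16869 ± 7272 (SD, n = 4) to 4327 ± 1762 (SD, n = 5), by 1.96 ± 0.34 (SE) on the log2 scale, with an adjusted *p* of 0.194 (limma). WT-GFP astrocytes stood at 13563 and GFP- cells at 1734. *C4b* (chromosome 17, 34728380 to 34743897) has a near copy, *C4a*, whose entry stood at 51.7 in APP-GFP and 21.8 in APP-SOCS3, and how reads of both were split is not stated. The call on *C4b* held without each library in turn (log2 difference -2.21 to -1.70), and with a microglial or endothelial score as a covariate (-1.47 and -1.76), the score being the mean of the scaled log2 levels of the markers in each sample.

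*Gfap*, the intermediate filament that marks reactive astrocytes (chromosome 11, 102887337 to 102897200), was at 9125, 27460, 21597 and 9425 in APP-GFP and 7580, 12887, 6077, 6804 and 5605 in APP-SOCS3 samples. APP-GFP samples 2 and 3 were high, and samples 1 and 4 lay within the range of APP-SOCS3. The mean fell from 16902 ± 9127 (SD, n = 4) to 7791 ± 2945 (SD, n = 5), by 1.02 ± 0.36 (SE) on the log2 scale, with an adjusted *p* of 0.647 (limma) and an exact permutation *p* of 0.0794. WT-GFP astrocytes stood at 12064. The 2 samples with the highest *Gfap* were those with the highest microglial sums. Without APP-GFP 3 the difference was -0.84 and no longer called. With the microglial or endothelial score as a covariate it was 0.17 and 0.06, a reversed sign.

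The other three astrocyte-enriched genes that fell were chosen after their values were seen. *Dbndd2* went from 3859 ± 1294 (SD, n = 4) to 2331 ± 503 (SD, n = 5), and *Hist2h2aa2*, a histone H2A gene with a near-identical copy, from 2755 ± 1256 to 1418 ± 276. *B230307C23Rik* went from 280 ± 135 to 133 ± 28.6. All 3 had overlapping groups, with APP-GFP 2 or 3 as the highest sample.

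The 51 astrocyte-enriched genes that rose had log2 differences of 0.59 to 3.25 with a median of 0.85, and 14 of them carry no symbol. Their groups did not overlap in 15. In 32 of the 51, APP-GFP 2 was the lowest of its group, and without that library 22 of the 51 were still called. With the microglial score as a covariate 3 of the 51 were still called, and with the endothelial score 7. The part of these libraries and scores in the result was not tested otherwise.

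Among those without overlap and with a mean level of at least 100, the smallest *p* was that of *Col11a2*, a chain of the fibrillar collagen XI. Its levels were 1820, 2535, 881 and 1431 in APP-GFP and 2641, 3436, 3735, 4358 and 3798 in APP-SOCS3 samples, a log2 difference of 1.19 ± 0.27 (SE). *Smpdl3b*, a membrane-anchored phosphodiesterase related to sphingomyelinases, was at 421, 460, 578 and 364 against 919, 987, 878, 769 and 644, a difference of 0.89 ± 0.21. The nearest samples of the groups were 578 in APP-GFP and 644 in APP-SOCS3. *Egfl6*, a secreted protein with EGF-like repeats, rose from 461 ± 232 (SD, n = 4) to 936 ± 148 (SD, n = 5). *Polrmt*, the RNA polymerase of mitochondria, rose from 526 ± 223 to 965 ± 216. All of these 4 calls held without each library in turn. With the microglial covariate the call on *Smpdl3b* held, *Col11a2* kept a difference of 0.91 but missed the threshold on *p*, and *Egfl6* (0.29) and *Polrmt* (0.36) were lost, the last 2 also with the endothelial covariate.

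Abundant secreted and channel proteins were among the same set. *Igfbp2*, which binds insulin-like growth factors outside the cell, was at 10225, 9131, 13954 and 10999 in APP-GFP and 18970, 15062, 19676, 15343 and 14722 in APP-SOCS3 samples (log2 difference 0.60 ± 0.15, SE). *Kcnk1*, the potassium leak channel TWIK1, was at 18370, 14665, 13069 and 16818 against 26268, 28272, 23824, 19038 and 20923 (0.59 ± 0.15). Both lie just past the fold threshold, and leaving out 1 library moved *Igfbp2* under it in 4 of 9 cases (lowest 0.52, without APP-GFP 2) and *Kcnk1* in 5 of 9 (lowest 0.50, without APP-GFP 3). The remaining genes of this set were *Dclk1*, a microtubule-associated kinase (0.70), *Trp53bp2*, a binding partner of p53 (0.64), *Pick1*, a scaffold of glutamate receptors (0.68), and *Pard6a*, a cell polarity scaffold (0.89). *Dclk1* was lost without APP-GFP 3 (0.50), *Trp53bp2* without APP-GFP 3 (0.53) or APP-SOCS3 2 (0.47), and *Pick1* and *Pard6a* without APP-GFP 2 (0.41 and 0.42). *Pard6a* was also lost without APP-SOCS3 1, 3, 4 or 5, at *p* values just above the threshold.

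**Figure D3:**
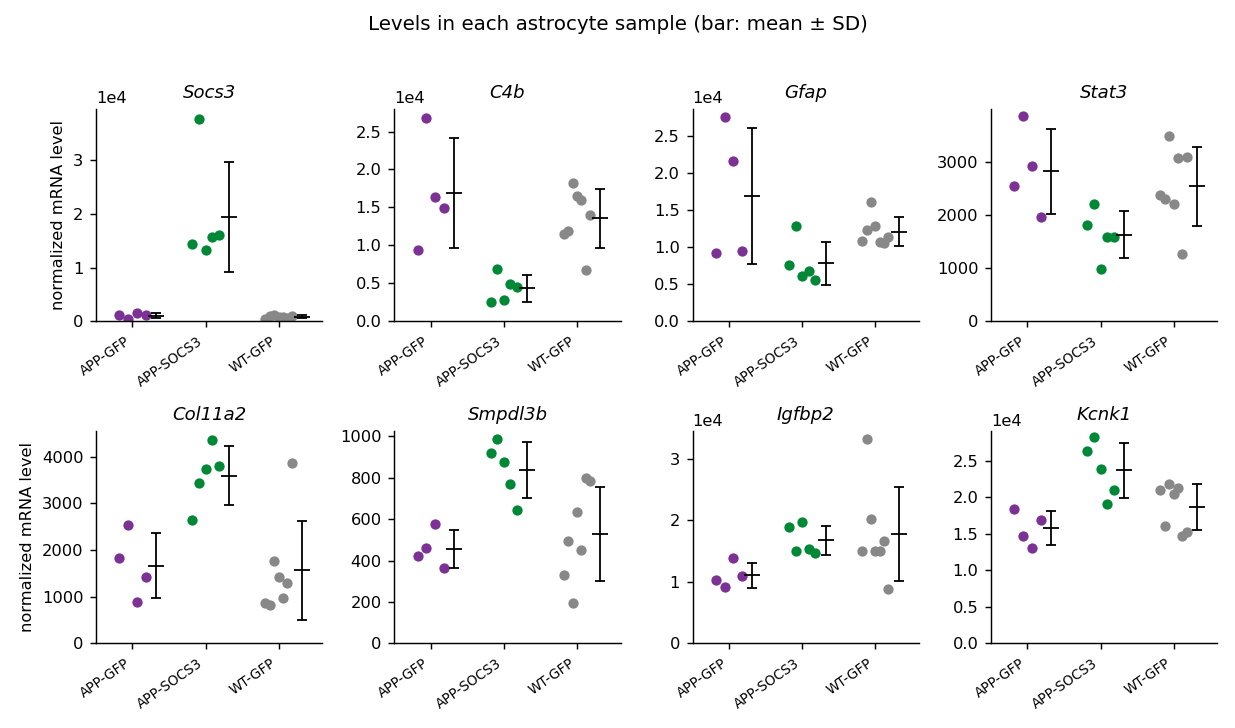
Normalized mRNA levels of 8 genes in each APP-GFP (n = 4), APP-SOCS3 (n = 5) and WT-GFP (n = 7) astrocyte sample, with mean ± SD as bars. *C4b* of APP-SOCS3 lies below all APP-GFP samples (2488 to 6886 against 9351 to 26775), and *Gfap* and *Stat3* overlap between the groups.

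Lists of genes for the tasks of astrocytes were called at shares near or under the 5.7% of all tested genes, or rested on a single gene. These cells clear glutamate, buffer potassium and water through their endfeet, are coupled by gap junctions and supply lipids and lactate. Of 20 genes of glutamate and GABA handling 0 rose and 1 fell, with a median log2 difference of -0.06 and of 0.02 in the 11 astrocyte-enriched members. The glutamate transporters *Slc1a2* (20726 ± 1931, n = 4, and 24020 ± 3619, n = 5, SD) and *Slc1a3* (121846 ± 44153 and 121148 ± 44358) differed by 0.21 and 0.00 on the log2 scale and were not called. The 1 member that fell, *Slc38a5*, is a glutamine transporter enriched in GFP- cells. Among 19 genes of water and potassium handling 1 rose, *Kcnk1* (median 0.14). *Aqp4*, the water channel of the endfeet, stood at 4663 ± 1126 and 5235 ± 1076 and was not called, and neither was *Kcnj10* (202 ± 93.2 and 196 ± 153). The gap junction genes *Gja1* (120219 ± 44484 and 149208 ± 24856) and *Gjb6* (4704 ± 1761 and 4841 ± 1949) were not called, while *Gjc1*, enriched in GFP- cells, fell by 2.63 and was the 1 call of 6 gap junction genes. Without APP-GFP 2, or with either covariate, neither the gap junction nor the glutamate list held a lower call. The gap junction list also held none without APP-GFP 3 or without APP-SOCS3 2, 3 or 5.

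Receptors of astrocytes gave calls in both directions, 3 higher and 2 lower of 26 (median 0.20). *Grm3*, a metabotropic glutamate receptor, rose from 5979 ± 2122 (SD, n = 4) to 8876 ± 1712 (SD, n = 5), by 0.63 on the log2 scale. *Adrb1*, the beta1 adrenergic receptor, rose from 593 ± 330 to 1067 ± 190, by 1.07. The APP-GFP levels of *Adrb1* were 941, 178, 501 and 750, and without sample 2 the difference was 0.57 and no longer called. The call on *Grm3* was lost without APP-GFP 2 (0.58), APP-GFP 3 (0.38) or APP-SOCS3 2 (0.52), and that on *Adrb1* also without APP-SOCS3 1 (1.00) or 3 (1.01). *Cnr1*, the cannabinoid receptor CB1, is in neither class and was at 241, 0, 49.5 and 152 in APP-GFP and 320, 342, 210, 261 and 269 in APP-SOCS3 samples. Its call rests on a limma *p* of 0.0479 and was lost without APP-GFP 3 or any APP-SOCS3 library. Both receptors that fell, *S1pr3* and *P2ry12*, were enriched in GFP- cells, and *P2ry12* is a marker of microglia.

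Metabolic lists gave no call in most cases. None of 27 cholesterol synthesis genes was called (median 0.16, and 0.17 in the 20 astrocyte-enriched members), none of 30 genes of glycolysis, glycogen and lactate (-0.04), none of 73 respiratory chain genes (-0.02) and none of 79 ribosomal protein genes (-0.16). The respiratory chain was the tightest of these lists, with log2 differences from -0.20 to 0.25. *Hmgcs1* (4491 ± 1770, n = 4, and 4657 ± 1884, n = 5, SD), which makes a precursor of cholesterol, varied more between samples of a group than between groups. Of 27 genes of lipoproteins and lipid handling 2 fell, *Apod* and *Lpl*, both enriched in GFP- cells. The astrocyte lipoproteins *Apoe* and *Clu* differed by -0.03 and 0.06 on the log2 scale and were not called. Among 12 metallothioneins and S100 genes none was called, with *Mt1* at 52519 ± 7522 and 50857 ± 14483. Of 27 synaptogenic and matricellular genes 1 fell, *Thbs2*, which is enriched in GFP- cells (median 0.09), and the list held 0 lower calls without APP-GFP 3 or 4 or without APP-SOCS3 1, 3 or 5. None of 27 transcription factors of astrocytes was called (median 0.15), and none of 29 genes of FGF, EGF and ERK signalling (0.11). A gene that was not called is not thereby shown to be equal in the groups.

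**Figure D4:**
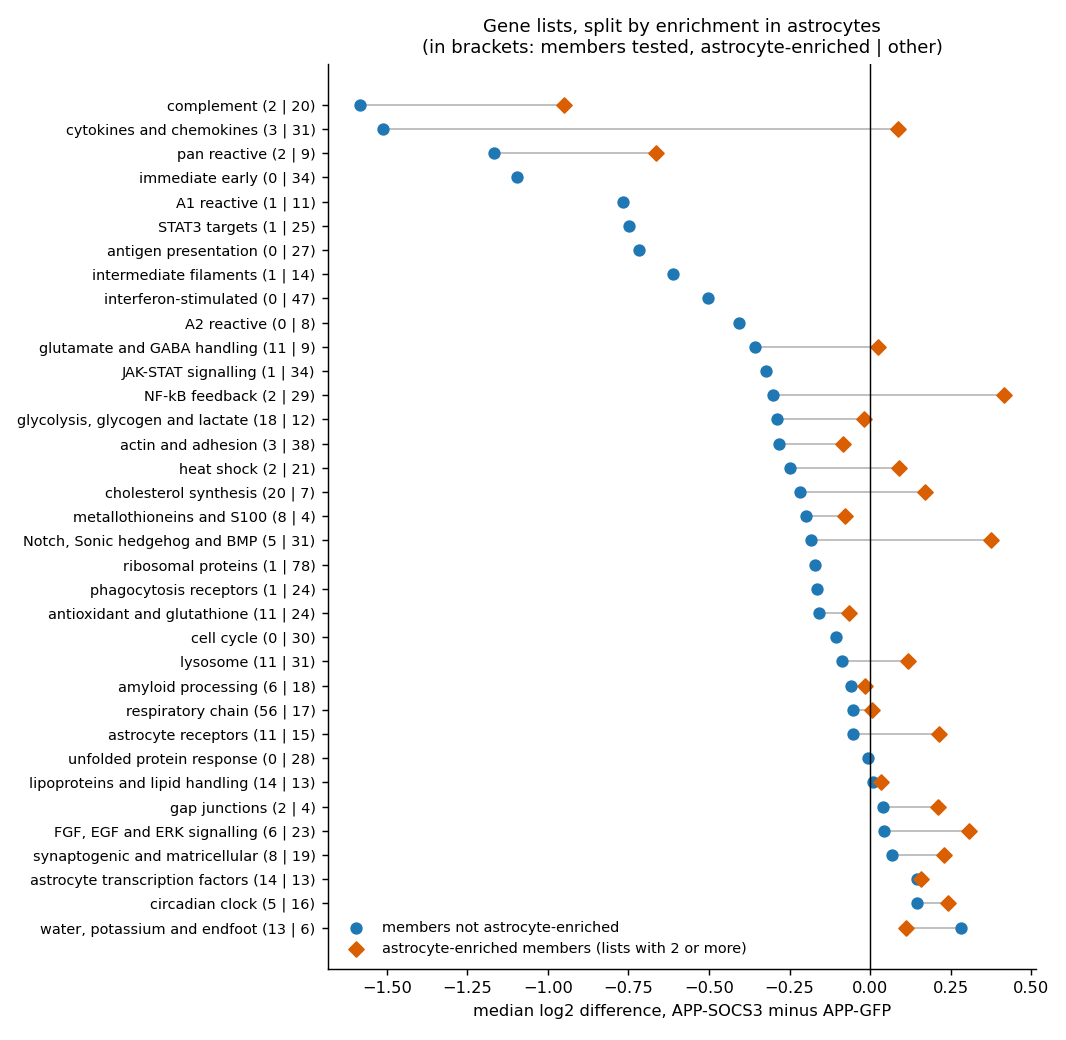
Median log2 difference (APP-SOCS3 minus APP-GFP) of the members of each gene list, with astrocyte-enriched members (diamonds, lists with 2 or more) apart from the other members (circles). Lists of immune genes lie to the left for members that are not astrocyte-enriched, with a median over all members of -1.58 for complement and -1.40 for cytokines and chemokines.

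Of genes known as targets of STAT3, 2 were called higher and 8 lower of 26 tested and 30 listed (median log2 difference -0.76, beside 0.08 over all genes). Over all tested genes 2.33% were called higher and 3.37% lower. Enriched in GFP- cells were 19 of the 26 and 6 of the 8 lower calls, a class with 11.4% of tested genes called lower. Listed genes under the minimum level were not tested and are left out of the counts here and below. *Gfap* was the sole astrocyte-enriched member. Those that rose were *Socs3*, the gene that the vector encodes, and *Bcl6*. *Bcl6*, a transcriptional repressor, was at 488, 189, 417 and 256 in APP-GFP and 628, 736, 960, 612 and 612 in APP-SOCS3 samples (log2 difference 1.15 ± 0.30, SE), without overlap. The 8 that fell were *Junb*, *S1pr3*, *Stat3*, *Gfap*, *Serpina3n*, *Cebpd*, *Icam1* and *Mcl1*. *S1pr3*, a receptor for sphingosine-1-phosphate, was at 597, 1297, 1218 and 1362 against 83.9, 144, 27, 343 and 258, which is 6.53-fold lower in the means, and the groups did not overlap. *Stat3* itself was at 2536, 3846, 2925 and 1959 against 1814, 2194, 975, 1575 and 1587, a difference of -0.80 ± 0.25 (SE), with a slight overlap of the groups. *Serpina3n*, a protease inhibitor of reactive astrocytes, went from 660 ± 319 to 288 ± 136, and its call was lost without APP-GFP 2 (-0.92) or 3 (-1.0) or without APP-SOCS3 3 (-1.01) or 5 (-0.98). The list held 5 lower calls without APP-GFP 3 or without APP-SOCS3 5, and 11 without APP-GFP 1. With the microglial or endothelial score as a covariate it held 2, and of the genes given here *S1pr3* kept its call with both. *Stat3* kept it with neither (-0.42 and -0.22), nor did *Bcl6*, whose difference stayed at 0.98 and 0.80 but missed the threshold on *p*.

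STAT3 dimers bind DNA at paired half-sites, written TTCNNNGAA, and the version TTCCNGGAA is the more stringent. Promoter windows of 250 bases before to 50 after a RefSeq start site (GRCm38.p6) were read for the called members of this list. A window was found for 9 of 10, and 4 of the 9 held a match. The matches are shown with 10 bases on either side because they lie in the genes of the list that rose (*Socs3*, *Bcl6*) as well as in genes that fell (*Gfap*, *Icam1*). Capitals mark the letters of the motif, which is the same on both strands, and each sequence is read along the strand of its gene. Distances are those of the first base of the motif from the start. The match of *Gfap* begins 2 bases before the start and runs across it, so most of it lies after the start.

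Socs3, chr11:117969502-117969530, minus strand, 154 bases before the start: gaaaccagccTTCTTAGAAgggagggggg

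Gfap, chr11:102897184-102897212, minus strand, 2 bases before the start: atgggggtgcTTCCAGGAAgtcaggggca

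Icam1, chr9:21015888-21015916, plus strand, 42 bases before the start: ggcgcgaggtTTCCCGGAAagtggccccg

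Bcl6, chr16:23981433-23981461, minus strand, 168 bases before the start: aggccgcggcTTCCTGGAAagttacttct

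Bcl6, chr16:23981353-23981381, minus strand, 88 bases before the start: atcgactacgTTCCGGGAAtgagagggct

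The matches of *Bcl6* shown lie before a start site inside the gene as annotated (23965051 to 23988637). The windows of *Bcl6* held 2 further matches to the looser motif. The further match at 23988952 to 23988980 lies outside the annotated span, before another start site. Of 27025 genes with windows of that length, 9.55% held TTCNNNGAA and 1.35% TTCCNGGAA in at least 1 window. Because windows were found for 72.1% of the tested genes with a symbol, under the 80% set as a minimum, no share was compared between called genes and the rest. A match describes the letters of a window and not binding.

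Members of the JAK-STAT pathway itself gave 0 higher and 5 lower calls of 35 (median -0.32), and its 1 astrocyte-enriched member was not among them. Of the 35, 22 were enriched in GFP- cells, and all 5 lower calls were among these. In that class 11.4% of tested genes were called lower, beside 3.37% of all tested genes. The lower calls were *Stat3*, *Ifnar2* (a chain of the receptor for type I interferons, 1926 ± 406 to 1211 ± 133, SD, n = 4 and 5), *Jak3*, and the phosphatases *Ptpn6* and *Ptpn1*. The call on *Ifnar2* was lost without APP-GFP 3 (-0.54) and with either covariate (-0.31 and -0.37), with which the list held 1 and 2 lower calls. The receptor subunits *Il6st*, which encodes gp130, and *Lifr* were not called. *Il6st* was at 762, 1027, 107 and 751 in APP-GFP and 217, 904, 180, 415 and 461 in APP-SOCS3 samples, a spread within groups that covers the difference between them.

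Lists of genes known to rise in reactive astrocytes held lower calls and no higher call. Of 11 pan reactive genes 5 fell (median -1.02), of 12 genes of the A1 list 5 fell (-0.74), and of 8 genes of the A2 list 2 fell (-0.41). *Gfap* was the sole astrocyte-enriched gene among these calls. Enriched in GFP- cells were 7 pan reactive, 9 A1 and 4 A2 members, with 3, 5 and 2 of the lower calls. In that class 11.4% of tested genes were called lower, beside 3.37% of all tested genes. The pan reactive calls were *S1pr3*, *Hspb1*, *Gfap*, *Serpina3n* and *Cp*. *Hspb1*, a small heat shock protein, was at 459, 2028, 1926 and 345 in APP-GFP and 426, 113, 163, 140 and 78.2 in APP-SOCS3 samples, high in the APP-GFP libraries with the highest microglial sums. The A1 calls were *Serping1*, *Gbp2*, *H2-D1*, *Srgn* and *Iigp1*, and the A2 calls *Cd14*, a receptor for bacterial lipopolysaccharide, and *Tm4sf1*. *H2-D1*, an MHC class I chain, was at 3928, 16476, 12961 and 5235 against 5235, 3831, 4462, 4084 and 2361, and its call was lost without APP-GFP 2 (-0.74), APP-GFP 3 (-0.85) or APP-SOCS3 5 (-0.90). Without APP-GFP 3 the pan reactive list held 2 lower calls and the A1 list 3, and without APP-GFP 2 they held 3 and 2. The A1 list also held 3 without APP-SOCS3 5. With the microglial covariate 1 pan reactive and 0 A1 genes were called lower. The filament *Vim*, known to rise with *Gfap* in reactive astrocytes, stood at 5648 ± 1796 and 3878 ± 916 and was not called (exact permutation *p* = 0.175). Of 15 intermediate filament genes 2 fell, *Gfap* and the neuronal *Ina*, with a median of -0.70. That count was 6 without APP-GFP 1, 4 without APP-GFP 4, 1 without APP-GFP 3 and 0 with either covariate.

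Of the pathway lists, that of the immediate early genes held the most lower calls, 19 of 34 tested and 38 listed, beside 3.37% of all tested genes. It held no higher call, and its median log2 difference was -1.10. They encode transcription factors and regulators that are switched on within minutes of a stimulus, and in tissue that is dissociated into cells. Of the 34, 31 were enriched in GFP- cells, and none was astrocyte-enriched. *Egr1*, a zinc finger transcription factor, was at 6316, 7235, 6125 and 5814 in APP-GFP and 1865, 3015, 995, 1736 and 2173 in APP-SOCS3 samples. The groups were far apart, with a log2 difference of -1.79 ± 0.26 (SE) and an adjusted *p* of 0.13 (limma).

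*Btg2*, an antiproliferative factor, was at 4503, 3785, 5048 and 3659 against 1839, 2288, 1860, 2018 and 2322, a difference of -1.03 ± 0.15 (SE). *Nr4a1*, an orphan nuclear receptor, was at 1232, 2182, 1437 and 985 against 309, 284, 169, 493 and 413, a difference of -2.15 ± 0.33. *Junb*, a subunit of AP-1, was at 11062, 11826, 12350 and 8378 against 6887, 5281, 5961, 5413 and 4905, a difference of -0.93 ± 0.15. In none of these 3 did the groups overlap. *Fosb* went from 345 ± 218 (SD, n = 4) to 75.5 ± 36.6 (SD, n = 5), also without overlap. *Fos*, the partner of JUN in AP-1, was at 34495, 11258, 13552 and 32526 against 6399, 10264, 5678, 12578 and 12655, and there the groups overlapped (exact permutation *p* = 0.0635).

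Across the APP-GFP samples these genes did not share 1 order. *Fos* was highest in samples 1 and 4, which had the lowest microglial sums of their group. *Nr4a1* and *Junb* were highest in samples 2 and 3, which had the highest microglial sums, and *Fosb* in sample 3. *Egr1* varied little between the 4, and *Btg2* was highest in samples 3 and 1. The list held 16 to 20 lower calls when each library was left out. With the microglial or endothelial score as a covariate 9 and 8 of its members were called lower, and *Btg2*, *Egr1*, *Nr4a1* and *Fos* were called with both. WT-GFP astrocytes held *Egr1* at 4351, *Btg2* at 3799 and *Nr4a1* at 760. GFP- cells held all of them at far higher levels (*Egr1* 77475, *Btg2* 43943, *Nr4a1* 24423), and the part of other cells or of the dissociation in the result was not tested beyond these values.

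**Figure D5:**
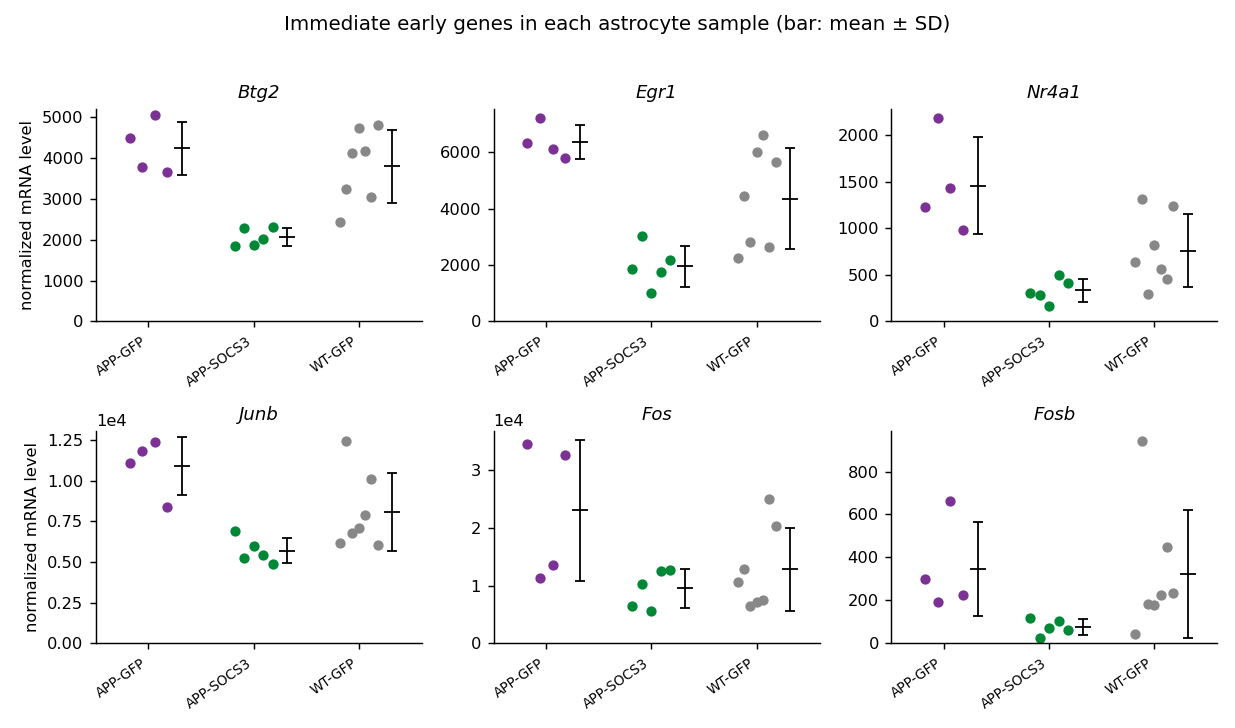
Normalized mRNA levels of 6 immediate early genes in each APP-GFP (n = 4), APP-SOCS3 (n = 5) and WT-GFP (n = 7) astrocyte sample, with mean ± SD as bars. In *Btg2*, *Egr1*, *Nr4a1*, *Junb* and *Fosb* all APP-SOCS3 samples lie below all APP-GFP samples, and in *Fos* they overlap.

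Lower calls were also frequent among complement, chemokine and antigen presentation genes, beside 3.37% of all tested genes and 11.4% of those enriched in GFP- cells. Enriched in GFP- cells were 10 of 22 complement members, 23 of 34 cytokines and chemokines and 21 of 27 antigen presentation genes. Of 22 complement genes tested and 26 listed, 9 fell and none rose (median -1.58). Besides *C4b* these included the chains of C1q, which microglia make and which start the classical pathway. *C1qa* was at 1140, 5966, 7467 and 1226 in APP-GFP and 925, 651, 1038, 539 and 203 in APP-SOCS3 samples, *C1qb* went from 10387 ± 8292 to 1832 ± 669 and *C1qc* from 7168 ± 5650 to 1237 ± 392 (SD, n = 4 and 5). The levels of *C1qa* were high in the same APP-GFP samples, 2 and 3, as the microglial sum of which it is part. *Clu*, the other astrocyte-enriched member of the complement list, was not called. With the microglial covariate 1 complement gene remained called lower, and *C1qa* (0.16) and *C1qb* (0.02) reversed their sign. Both genes are members of that score, so their change follows in part from how the score was made.

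Of 34 cytokines and chemokines tested and 42 listed, 10 fell and none rose (median -1.40), all of them enriched in GFP- cells. *Ccl2*, which attracts monocytes, was at 72.4, 197, 118 and 240 against 46.4, 22.3, 28, 15.7 and 45.7, without overlap. *Cxcl1*, which attracts neutrophils, was at 58.8, 91.1, 17.8 and 32.3 against 13.2, 0, 0, 1.96 and 0, so in 3 samples no read was counted. The 3 astrocyte-enriched members, *Il18*, *Il33* and *Cxcl14*, named after their values were seen, differed by 0.16, -0.23 and 0.09 on the log2 scale and were not called. The list held 5 lower calls without APP-GFP 3 and 14 without APP-GFP 1, and 2 or 1 with the microglial or endothelial covariate.

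Of 27 antigen presentation genes 8 fell (median -0.72), none of them astrocyte-enriched. *Ctss*, a protease that trims the MHC class II chaperone and a marker of microglia, was at 1797, 13071, 14617 and 3329 in APP-GFP and 1498, 1250, 1805, 1050 and 823 in APP-SOCS3 samples. *B2m*, the shared light chain of MHC class I, went from 7659 ± 2271 to 4692 ± 903 (SD, n = 4 and 5), and its call was lost without APP-GFP 2 (-0.54) or 3 (-0.57) or APP-SOCS3 5 (-0.58). The class II chains *H2-Ab1* and *H2-Eb1*, with *Cd74*, were among the lower calls. The list held 2 lower calls without APP-GFP 3, 3 without APP-SOCS3 5 and 5 without APP-GFP 2, 4 or APP-SOCS3 2, and 0 with either covariate.

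Interferon-stimulated genes gave 5 lower calls of 47 (median -0.50). Of the 47, 37 were enriched in GFP- cells, a class in which 11.4% of tested genes were called lower. Among the 5 were *Ly6e* (5079 ± 3604 to 1068 ± 435, SD, n = 4 and 5) and *Ifitm3* (2265 ± 932 to 987 ± 198). Feedback genes of NF-kB gave 6 lower calls of 31 (median -0.25) and 1 higher. The one that rose, named after its value was seen, was the astrocyte-enriched *Tlr3*, the receptor for double-stranded RNA, from 1860 ± 583 to 2940 ± 880 with overlapping groups. Its call was lost without APP-GFP 3 (0.41) or without APP-SOCS3 2 (0.53), 4 (0.65) or 5 (0.65). The lower calls were *Ier3*, *Nfkbiz*, *Tnfaip3*, *Tlr2*, *Icam1* and *Myd88*. Without APP-GFP 3 the NF-kB list held 3 lower calls, and the interferon list held 10 without APP-GFP 4 and 8 without APP-SOCS3 1. With the microglial covariate 2 interferon-stimulated and 0 NF-kB genes were called lower.

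Genes of uptake and breakdown held lower calls among members enriched in GFP- cells, a class in which 11.4% of tested genes were called lower. Of 25 phagocytosis receptors 7 fell (median -0.15), all enriched in GFP- cells. *Fcer1g*, the signalling chain of Fc receptors, went from 1107 ± 848 to 183 ± 84.1 (SD, n = 4 and 5). Of 42 lysosomal genes 5 fell (-0.05), while the 11 astrocyte-enriched members had a median of 0.12 and no call. With either covariate 0 members of these lists were called lower. The microglial score was lower in every APP-SOCS3 sample (highest -0.303) than in every APP-GFP sample (lowest -0.155). The endothelial score overlapped only in APP-SOCS3 1 (0.269), which lay above APP-GFP 4 (0.238). A covariate therefore also takes up part of the difference between the groups. For a call lost with a covariate, score and group cannot be told apart.

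Among the other lists, 2 of 23 heat shock entries fell. The joint entry of *Hspa1a* and *Hspa1b*, stress-induced chaperones, was at 2297, 8188, 10655 and 2446 in APP-GFP and 1208, 899, 857, 1104 and 321 in APP-SOCS3 samples, with no overlap. It was high in APP-GFP 2 and 3, the samples with the highest microglial sums, and went from a difference of -2.55 to -0.73 and -0.67 with the microglial and endothelial covariates, with which no heat shock gene was called lower. The list held 4 lower calls without APP-GFP 1 or APP-SOCS3 2. Of 41 actin and adhesion genes 5 fell (median -0.25), none of them astrocyte-enriched. Of the 41, 28 were enriched in GFP- cells, a class with 11.4% of tested genes called lower. Among those that fell was *Tmsb4x* (9347 ± 5469 to 3149 ± 770, SD, n = 4 and 5), which binds actin monomers. That list held 3 lower calls without APP-GFP 2, APP-GFP 3 or APP-SOCS3 4, 9 without APP-GFP 1, 8 without APP-GFP 4 or APP-SOCS3 2, and 0 with either covariate (*Tmsb4x* -0.09 and -0.23). Of 24 genes of amyloid processing 1 fell, *App* itself, at 3663, 11151, 7780 and 10265 against 3153, 6011, 2633, 4899 and 2715. APP-GFP 1 lay among the APP-SOCS3 samples, and the exact permutation *p* was 0.0635. The level of *App* may hold reads of the chimeric transgene, and WT-GFP astrocytes stood at 4385 and GFP- cells at 38552. The call was lost with either covariate. *Apod*, a lipid-binding lipocalin, was at 872, 8266, 6593 and 779 against 771, 364, 672, 285 and 70.3, and *Lpl*, a lipase, went from 433 ± 280 to 52 ± 54.8. Of 28 genes of the unfolded protein response 1 fell, of 35 antioxidant genes 2, of 36 Notch, Sonic hedgehog and BMP genes 1, of 30 cell cycle genes 1 and of 21 clock genes 1, shares close to the 3.37% of all genes called lower. The antioxidant count was 0 without APP-GFP 2 or 3 or APP-SOCS3 5. No gene of these 5 lists rose.

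Outside the astrocyte-enriched class, the genes with the smallest *p* and no overlap were, besides *Socs3* and the immediate early genes, *Cysltr1* among those that fell. It encodes a leukotriene receptor, and was at 72.4, 311, 25.7 and 52.3 in APP-GFP and 0 in all 5 APP-SOCS3 samples. Set against a floor of 3 reads per library its mean was at least 39.3-fold lower. Those that rose were *Suv420h2*, a methyltransferase of histone H4 (457 ± 123 to 897 ± 143, SD, n = 4 and 5), *Pclo*, a scaffold known from presynaptic terminals (166 ± 41.6 to 394 ± 129), *Fbxo34*, an F-box protein (572 ± 214 to 1136 ± 242), and *Bcl6*. The call on each of these 5 held without each library in turn. With either covariate that on *Cysltr1* held, and those on the 4 that rose were lost, with log2 differences of 0.54 and 0.38 for *Suv420h2*, 0.65 and 0.53 for *Pclo* and 0.37 and 0.24 for *Fbxo34*, and the values given above for *Bcl6*. In *Suv420h2*, *Pclo*, *Fbxo34* and *Bcl6* APP-GFP 2 was the lowest of the APP samples. WT-GFP astrocytes had levels of 699 ± 269, 246 ± 87.9, 935 ± 943 and 519 ± 289 (SD, n = 7). Their means lay between those of the APP groups, but the WT-GFP samples spread widely, in *Fbxo34* from 9.08 to 2537.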

How the data were processed

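The authors amplified RNA of sorted cells with a kit for low inputs (SMARTer v4, then Nextera XT), sequenced it on an Illumina HiSeq, mapped reads to mm10 with STAR 2.4.0 and counted them on constitutive regions of FAST DB genes. As deposited, each value is a signal, called level here, for which the authors divided a gene's read count by the DESeq2 size factor of its sample. Whether counting used strand, and how reads that match several genes were treated, is not stated. The study counts its samples as mice, and its methods say that both hippocampi of a mouse were sorted separately. Whether any samples share a mouse is not stated, so *p*-values measure the spread between samples, which may be technical. Of 60567 entries, 34671 have no symbol, and 21293 are at 0 throughout. Groups and replicate numbers were taken from the labels.

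Whole reads were recovered from 100% of values (tolerance 0.001), and 1 read was worth 0.872 to 1.10 units of level in the 9 samples. Levels at 0 and floors of 3 reads cover counting error only. Differences are on the scale of log2(level + 1), which understates changes of low genes. They were tested with limma 3.58.1 in R 4.3.3 (mean-variance trend, 9 samples, no covariate), with Benjamini-Hochberg adjustment over all 22844 tested genes and 2-sided exact permutation tests of single genes. The fit was tested on simulated data. Enrichment of a gene in astrocytes was called by the same thresholds, an unadjusted *p* of at most 0.05 and 1.5-fold, between WT-GFP astrocytes and GFP- cells.

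Named genes were *Socs3*, the genes with the smallest *p* among calls with a mean level of at least 100 and no overlap (up to 12 in each direction for astrocyte-enriched genes and 5 for the rest), and, in each of 35 pathway and 12 marker lists, called members and the first 2 members. A few genes that meet this rule are left out of the text. The lists were written from general knowledge. The comparison, rule and lists were chosen with earlier results of these data known, so no list was tested as a set.

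The alternatives were pseudocounts of 0.1 and 10, no minimum level or one of 100, equal totals or equal upper quartiles, edgeR 4.0.16 (quasi-likelihood) and DESeq2 1.42.0 on recovered reads, all 16 astrocyte samples in 1 fit, sample weights, the replicate number as a block, a microglial or endothelial score as a covariate, adjusted *p*, 2-fold, 2 other definitions of enrichment and leaving out each sample. Promoter windows are those of RefSeq on GRCm38.p6, and positions of genes those of the authors' annotation.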

Additional observations from a re-analysis of the deposited data

Results flagged for a closer look

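For the genes given above, each group of 4 or 5 samples was searched for a sample far from the others, by Dixon's test on log2 levels. Of the groups searched, 8 held such a sample (6.56%), and chance alone marks about 1 in 20.

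In the APP-SOCS3 group, *Socs3* was high in sample 2 (37750) and so was *Gjb6* (8324), while *Hspa1a* with *Hspa1b* was low in sample 5 (320.8). Leaving out that sample or any other did not change the calls on *Socs3* and *Hspa1a* with *Hspa1b*. In the APP-GFP group, *Pick1* (447.8) and *Pard6a* (173.6) were low in sample 2, the library with the fewest genes detected, and both calls were lost without it. *Aqp4* (2986) and *Il6st* (106.8) were low in APP-GFP sample 3, and neither gene was called. *S1pr3* was low in APP-GFP sample 1 (597.4), which still lay above every APP-SOCS3 sample.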

How the results depend on the processing

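Each setting gives its own set of calls, not a share of the calls reported. Over all genes (1301 calls) there were 547 with the microglial covariate, 681 with the endothelial covariate, 650 at a minimum level of 100 and 1 after Benjamini-Hochberg adjustment. For genes enriched in GFP- cells (689) the same settings gave 183, 221, 425 and 1. For genes of neither class (556) there were 310 with the microglial covariate, 177 at a minimum of 100 and 0 after adjustment, and leaving out 1 library gave 401 to 845 (845 without APP-GFP 1, 839 without APP-GFP 4). The 56 astrocyte-enriched calls became 98 with equal upper quartiles, 19 at 2-fold, 0 after adjustment (123 at an unadjusted *p* of at most 0.05), 318 of 9054 where enrichment was taken from mean levels alone and 21 of 705 where it was at least 4-fold without overlap. Leaving out 1 library gave 41 to 125 (113 without APP-GFP 1, 125 without APP-GFP 4). Enrichment by mean levels leaves no gene in neither class. Signs reversed with the microglial covariate for *C1qb* (0.0218), *C1qa* (0.16), *Apod* (0.23), *B2m* (0.0581), *Gfap* (0.17) and *H2-D1* (0.41), and with the endothelial covariate for *Apod* (0.35), *B2m* (0.0044), *Gfap* (0.0632), *H2-D1* (0.39) and *Serpina3n* (0.35). The cause was not tested, and both scores differ between the groups. *C1qa* and *C1qb* are members of the microglial score, so their change follows in part from how it was made. The other counts by class stayed within 1.5 times of their value. Rescaling moved the median log2 difference of all genes from 0.08 to 0.15 (equal upper quartiles). With the replicate block 1132, 41, 580 and 511 genes were called (all, astrocyte-enriched, enriched in GFP- cells, neither). Same-numbered samples deviated from their group means with correlations of 0.0058 to 0.0886, so the numbers were not taken as pairs. Under the calling rule, a change under 1.5-fold was not called, whatever its *p*.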
